A study of Mus musculus with 6 samples.

Results

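Ligands and receptors of the tumor necrosis factor (TNF) superfamily were examined in the whole-skin transcriptomes of 3 control and 3 JunBΔep mice, obtained by RNA sequencing. A gene of the deposited table was taken as a member when its symbol starts with Tnfsf or Tnfrsf, or is Tnf, Lta, Ltb, Ltbr, Fas, Fasl, Cd40, Cd40lg, Cd27 or Cd70. This gave 42 of the 23951 genes in the table, 18 of them ligands and 24 receptors. One of the ligands is Tnfsf12Tnfsf13, a read-through transcript that joins the neighbors Tnfsf12 and Tnfsf13. The control mice are labelled JunB +/+ and the mutants JunB dep, all on the C57Bl/6 strain, and the labels give an age of 6 to 7 months for both groups. The mice were littermates. In JunBΔep mice a floxed Junb gene is deleted by a Cre that is driven by the keratin 5 promoter, so that basal keratinocytes lose Junb while the immune cells, fibroblasts and vessels of the skin keep it. The mutant skin was lesional, and each library came from 1 mouse. RNA of whole skin cannot tell fewer cells of a type from less RNA per cell.

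TNF superfamily ligands are mostly trimeric membrane proteins that bind and cluster their receptors on neighboring cells, and several are also shed from the membrane by proteases. Receptors with a death domain can start apoptosis or necroptosis, whereas most others recruit TRAF adaptors and activate NF-κB. Decoy receptors bind a ligand without signaling. In skin, Tnf drives inflammation and leukocyte recruitment, and the costimulatory pairs tune T cells. Tnfsf11, also known as RANKL, its receptor Tnfrsf11a (RANK) and its decoy Tnfrsf11b (osteoprotegerin) control osteoclasts, and in the epidermis they also act on Langerhans cells and regulatory T cells. Junb encodes a subunit of AP-1, a transcription factor that acts with NF-κB at many inflammatory genes.

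Levels are given in FPKM, a measure scaled to transcript length and library size, which allows genes of different length to be set side by side. The values summed to 481078 to 630363 FPKM per mouse, and no counting interval is given because read numbers are unknown. Junb itself had 59.3, 72.4 and 56.9 FPKM in the controls (replicates 0, 1 and 2, the order used throughout). JunBΔep replicates 1 and 2 had 42.8 and 28.0 FPKM, whereas the library labelled JunBΔep replicate 0 had 129.6 FPKM and so exceeded all controls. That library also stood apart in its cell markers. Its 5 mucosal epithelium markers, such as Krt13, summed to 3798 FPKM against 0.394 to 1.41 FPKM in the other 5 mice, and its 5 neutrophil markers to 24548 FPKM against 14.1 to 1452 FPKM. S100a8 alone gave 24456 FPKM of that sum, and S100a8 and S100a9 gave 744 and 698 FPKM of the 1452 FPKM. The paper reports S100a9 expression in cultured keratinocytes too, so these sums need not count neutrophils alone. The markers Csf3r, Cxcr2 and Mmp8 were at 44.3, 22.3 and 25.3 FPKM in that library, against at most 3.70, 2.45 and 2.85 FPKM elsewhere. The 4 adipocyte markers of that library, such as Adipoq, summed to 3.04 FPKM against 374 to 1662 FPKM in the other 5 mice, and each of the 4 was below every other mouse by more than 2 times. The highest of those other neutrophil sums belonged to control replicate 0, which also had 1474 FPKM of 5 liver markers against 0.493 to 28.6 FPKM elsewhere. Krt5, which marks basal keratinocytes, was at 1588 to 3725 FPKM in all 6 mice. The neutrophil gene S100a9 and the keratinocyte gene Krt14 were listed at 0 in the library labelled JunBΔep replicate 0, which can be a failed estimate, since S100a8 was at 24456 FPKM there. Skeletal muscle markers were lower in every mutant (1553 to 3725 FPKM over 6 genes, against 16435 to 22399 FPKM in controls). The Junb level of this library thus went against its genotype label. It checks that label only in part, since the Cre is not driven in all cells of the sample. Krt13 and its other mucosal markers are known from mucosa rather than from skin. Whether the label or the site of the sample is right was not tested. It is counted among the mutants as labelled, which holds for every statement on all mutants, and fold changes are given with all 6 mice and without it.

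No member passed the test between the groups. Of the 42 members, 37 averaged 0.1 FPKM or more and were tested with limma on the log2(FPKM + 0.5) scale. This scale makes the change of a low gene look smaller than it is. Fold changes are given with their standard error (SE). At an adjusted p below 0.05, 0 of the 37 were called, against 235 of all 17021 genes tested (1.38%). The adjusted p of the members ran from 0.57 to 0.986. At an unadjusted p below 0.05 there was 1 member, Tnfrsf17, against 7.56% of all genes. All 3 mutants were above all 3 controls in 2 tested members, Tnfsf11 and Tnfrsf10b (all genes 5.62%), and below them in 2, Tnfrsf17 and Tnfsf18 (all genes 9.16%). For a single gene in 3 mice against 3, the smallest p of an exact permutation test is 0.1 (two-sided). These counts moved with single mice. Members at an unadjusted p below 0.05 numbered 0 without control replicate 0, control replicate 2 or JunBΔep replicate 1 (all genes 4.72%, 6.08% and 6.41%) and 4 without JunBΔep replicate 2 (all genes 18.4%). Members higher without overlap numbered 8 without JunBΔep replicate 1 (all genes 9.66%) and 4 without control replicate 1, control replicate 2 or JunBΔep replicate 2 (all genes 11.6%, 12.5% and 19.4%). The level filter was applied anew, so 38 or 39 members were tested in these settings. Each of these counts includes Tnfrsf8, and those without JunBΔep replicate 1 or control replicate 2 include Fasl. Both miss the filter with all 6 mice, and their highest values lay in mutants, so the filter favored their entry as higher members. Members lower without overlap numbered 5 without JunBΔep replicate 2 (all genes 20.6%) and 4 without the library labelled JunBΔep replicate 0 (all genes 13.1%). The median log2 fold change was 0.05 over the tested members and 0.03 over all genes, with 20 members positive and 17 negative. Without the library labelled JunBΔep replicate 0 the members' median was -0.14, with 12 positive and 25 negative, and the median of all genes stayed at 0.03. Those 37 members still held 0 calls (135 of all 16912 genes) and 1 gene at an unadjusted p below 0.05 (all genes 8.07%). The 5 members that missed the level filter were Cd40lg, Cd70, Fasl, Tnfrsf8 and Tnfsf4.

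The family did vary widely from mouse to mouse. The library labelled JunBΔep replicate 0 held the highest value of 21 of the 42 members and the lowest of 10. Since a gene can pass the level filter through this library alone, its peaks were counted over genes that averaged 0.1 FPKM or more in the other 5 mice, which all 37 tested members did. It was the highest for 48.6% of these members and for 28.8% of all such genes. It exceeded each of the other 5 mice by more than 2 times in 10 of the 37 members (27%), against 5.66% of all such genes. In contrast, JunBΔep replicate 1 held the lowest value of 17 members, 15 of them tested (40.5% of the tested members, against 17.6% of all tested genes). Relative to the control mean, the median tested member was at 0.37 on the log2 scale in the library labelled JunBΔep replicate 0, at -0.22 in JunBΔep replicate 1 and at 0.02 in JunBΔep replicate 2. The controls ran from -0.17 to 0.11. The mutants therefore lay on both sides of the controls.

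**Figure D1:**
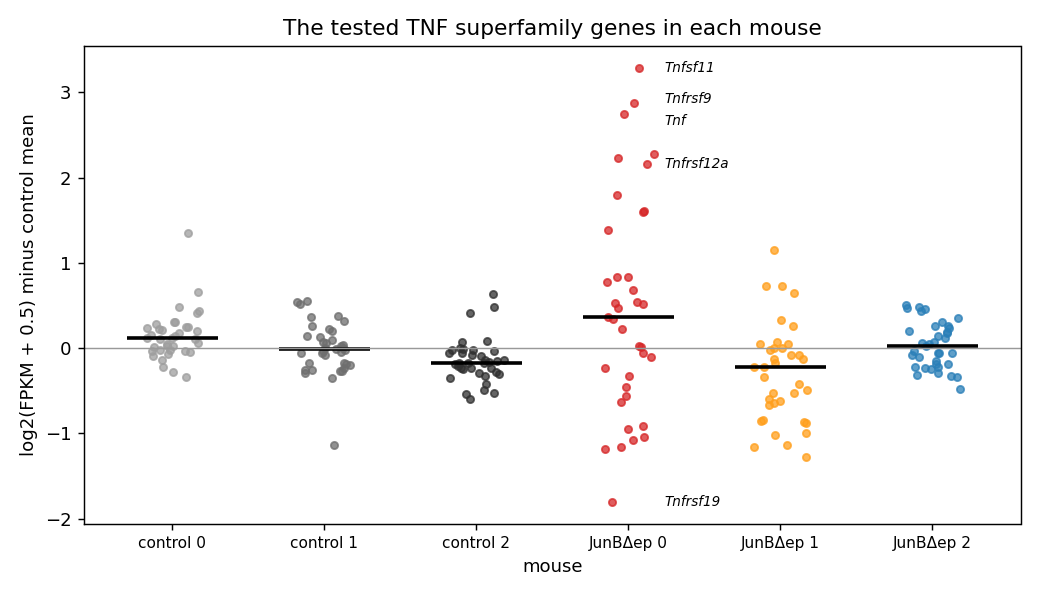
Difference from the control mean on the log2(FPKM + 0.5) scale (y axis) for the 37 tested TNF superfamily genes in each mouse (x axis), with 1 point per gene and a black bar at the median. The points of the library labelled JunBΔep replicate 0 spread most widely, from Tnfrsf19 at the bottom to Tnfsf11 at the top, while its median is 0.37.

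Because JunB is part of AP-1, the reference promoters of the members were searched for the AP-1 motif TGANTCA on both strands, where N is any base. The window ran from 250 bases before to 50 bases after each start site of RefSeq (GRCm38.p6), and the windows printed here, of 300 bases each, were placed on mm9 by exact match. A promoter was given for 31 of the members, and 6 of these (19.4%) held the motif, against 8.97% of 27025 genes. These were Fas, Tnfrsf8, Tnfrsf9, Tnfsf13, Tnfsf13b and Tnfsf14. Counted by promoter, the motif was in 7 of 35 (20%) for the members and in 7.81% of 32851 for all genes, with the promoters of Tnfsf13b overlapping at 1 shared match. A match describes the letters of the window and is neither a binding site nor a cause. Of the 21 members with their highest value in the library labelled JunBΔep replicate 0, 14 had a promoter and 4 of these the motif, and of the 10 tested members that exceeded every other mouse by more than 2 times there, 8 had a promoter and 2 the motif (Tnfrsf9 and Tnfsf14). Of the other 21 members, 17 had a promoter and 2 the motif. The promoters shown were chosen after these values were seen. They are those of 4 members whose highest value was that of the library labelled JunBΔep replicate 0, 3 with the motif (in capitals) and that of Tnfsf11, the most shifted member, which had none in this window. The promoter of Tnfsf13, with the match at position -133, is not shown. Tnfsf13 was highest in that library by a small margin only (11.0 FPKM, against 9.48 FPKM in control replicate 2). The Tnfrsf8 window is chr4:144905018-144905317 on the minus strand, with the match at position -132 from the start site. For Tnfrsf9 it is the second of 2 start sites, chr4:150301858-150302157 on the plus strand, with the match at position -15 from that site. The Tnfsf14 window is chr17:57333555-57333854 on the minus strand, with the match at position -160 from the start site. The Tnfsf11 window is chr14:78707801-78708100 on the minus strand.
Tnfrsf8: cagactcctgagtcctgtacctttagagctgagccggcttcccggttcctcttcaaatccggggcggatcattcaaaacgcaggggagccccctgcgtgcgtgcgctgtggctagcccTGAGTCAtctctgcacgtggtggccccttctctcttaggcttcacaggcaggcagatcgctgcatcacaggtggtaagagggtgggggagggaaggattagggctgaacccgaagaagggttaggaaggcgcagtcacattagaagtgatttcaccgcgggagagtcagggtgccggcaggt
Tnfrsf9: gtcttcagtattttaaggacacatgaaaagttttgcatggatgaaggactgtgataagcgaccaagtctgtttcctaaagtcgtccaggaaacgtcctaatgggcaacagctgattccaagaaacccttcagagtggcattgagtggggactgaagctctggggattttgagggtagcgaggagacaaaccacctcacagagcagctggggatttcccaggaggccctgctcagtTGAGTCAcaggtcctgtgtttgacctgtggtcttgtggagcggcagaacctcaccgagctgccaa
Tnfsf14: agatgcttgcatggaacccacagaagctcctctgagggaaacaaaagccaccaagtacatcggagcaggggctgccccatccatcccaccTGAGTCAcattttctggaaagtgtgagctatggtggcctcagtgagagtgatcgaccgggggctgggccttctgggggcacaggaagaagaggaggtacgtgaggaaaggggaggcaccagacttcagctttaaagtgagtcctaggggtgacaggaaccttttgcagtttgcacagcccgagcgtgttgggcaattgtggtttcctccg
Tnfsf11: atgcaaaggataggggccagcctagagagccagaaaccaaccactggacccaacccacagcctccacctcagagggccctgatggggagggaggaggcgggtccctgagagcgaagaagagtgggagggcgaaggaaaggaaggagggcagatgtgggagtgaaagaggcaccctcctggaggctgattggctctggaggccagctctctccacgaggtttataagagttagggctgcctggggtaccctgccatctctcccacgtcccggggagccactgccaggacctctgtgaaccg

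Among the ligands, Tnfsf11 showed the largest fitted difference and was higher in every mutant. Tnfsf11 (chromosome 14, 78677252 to 78707850, mm9) had 0.134, 0.162 and 0.132 FPKM in the controls. The library labelled JunBΔep replicate 0 reached 5.78 FPKM, and JunBΔep replicates 1 and 2 had 0.307 and 0.267 FPKM. The groups did not overlap, but the library labelled JunBΔep replicate 0 was 18.9 times as high as any other mouse. Its fitted log2 fold change was 1.29 (SE 0.82, limma adjusted p = 0.722). Without the library labelled JunBΔep replicate 0 it was 0.29 (SE 0.14, adjusted p = 0.735), and both remaining mutants were still above all 3 controls. At these low levels the log2(FPKM + 0.5) scale compresses the difference. In JunBΔep replicate 1 the FPKM was 2.15 times the control mean, and in JunBΔep replicate 2 it was 1.87 times.

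The 2 receptors of Tnfsf11 did not follow it. The signaling receptor Tnfrsf11a was at 2.49, 1.79 and 1.57 FPKM in controls against 1.13, 0.855 and 2.23 FPKM in mutants, with a log2 fold change of -0.41 (SE 0.33, limma adjusted p = 0.722), and -0.33 without the library labelled JunBΔep replicate 0. With any mouse left out it ranged from -0.701 (without JunBΔep replicate 2) to -0.195 (without JunBΔep replicate 1). The decoy Tnfrsf11b was at 6.42, 5.35 and 4.47 FPKM in controls against 2.28, 5.39 and 7.81 FPKM in mutants. The mutants hence held both the lowest and the highest value of the decoy. Its log2 fold change was -0.19 (SE 0.43, adjusted p = 0.887), and it was 0.25 without the library labelled JunBΔep replicate 0. As a ratio of FPKM, ligand to decoy was 0.0209, 0.0302 and 0.0296 in controls and 2.54, 0.0569 and 0.0342 in mutants. This ratio was above the controls in every mutant, in JunBΔep replicate 2 by a narrow margin. Since Tnfsf11 alone was already above them, the ratio is not a separate observation. The ratio of Tnfsf11 to Tnfrsf11a was 0.0537, 0.0904 and 0.0846 in controls and 5.09, 0.359 and 0.12 in mutants. These ratios were taken after the levels had been seen and carry no test.

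**Figure D2:**
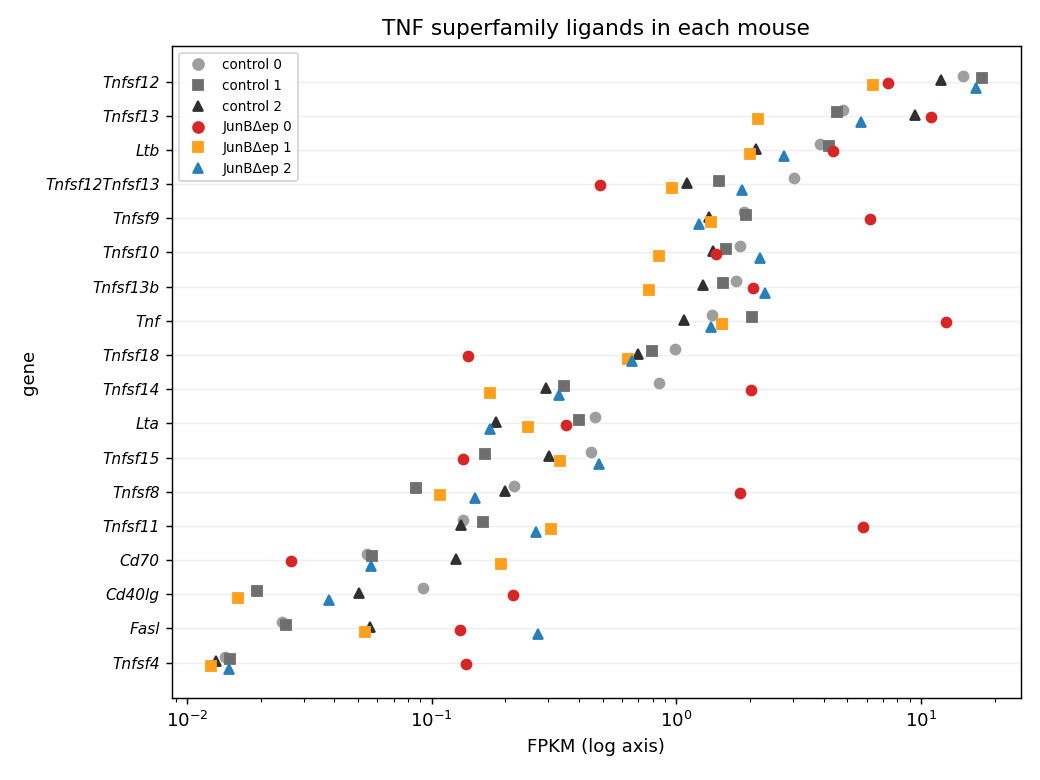
FPKM on a log axis (x axis) of the 18 TNF superfamily ligands (y axis, ordered by control mean), with 1 point per mouse, grey for controls and colored for mutants. The library labelled JunBΔep replicate 0 (red circles) stands far to the right for Tnf, Tnfsf9, Tnfsf8, Tnfsf11, Tnfsf14 and Tnfsf4 and to the left for Tnfsf18, and the levels span 0.0125 to 17.8 FPKM.

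Tnf, the founding cytokine of the family, was high in 1 mouse only. The controls had 1.41, 2.04 and 1.07 FPKM of Tnf (chromosome 17, 35336326 to 35338952). The library labelled JunBΔep replicate 0 reached 12.7 FPKM, whereas the other mutants, with 1.54 and 1.39 FPKM, lay within the range of controls. Tnf had a log2 fold change of 0.91 (SE 0.78, limma adjusted p = 0.723), which came to -0.01 (SE 0.27) when that library was left out. Lta and Ltb, which encode the lymphotoxins, flank Tnf at distances of 1158 and 3061 bp with no coding gene in between. Lta did not share its peak, and Ltb was highest in the same library by a narrow margin. Lta was at 0.466, 0.401 and 0.183 FPKM in controls against 0.356, 0.248 and 0.173 FPKM in mutants. Ltb, which is expressed mainly by lymphocytes, was at 3.87, 4.20 and 2.12 FPKM in controls against 4.37, 2.01 and 2.75 FPKM in mutants. Both overlapped between the groups.

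Tnfsf9, Tnfsf8 and Tnfsf14, grouped here after their values were seen, had the same shape as Tnf. Tnfsf9, the ligand of Tnfrsf9, was at 1.89, 1.92 and 1.36 FPKM in controls against 6.197, 1.39 and 1.24 FPKM in mutants. Tnfsf8, the ligand of Tnfrsf8, was at 0.217, 0.0865 and 0.199 FPKM in controls against 1.82, 0.109 and 0.15 FPKM in mutants. Tnfsf14, also called LIGHT, which binds Tnfrsf14 and Ltbr, was at 0.850, 0.348 and 0.294 FPKM in controls against 2.02, 0.173 and 0.332 FPKM in mutants. In each of the 3 genes the library labelled JunBΔep replicate 0 was the highest by more than 2 times and the other mutants were within or below the range of controls. The log2 fold changes of Tnfsf9, Tnfsf8 and Tnfsf14 were 0.35, 0.55 and 0.21 with all mice and -0.28, -0.08 and -0.37 without that library. Tnfsf9, Cd70 and Tnfsf14 are neighbors on chromosome 17. Cd70, the ligand of Cd27, lies between the other two and had its lowest value, 0.0265 FPKM, in that library.

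Tnfsf18 went the other way. Tnfsf18, the ligand of Tnfrsf18 (GITR), was at 0.992, 0.794 and 0.697 FPKM in controls against 0.141, 0.635 and 0.660 FPKM in mutants. All mutants lay below all controls, JunBΔep replicates 1 and 2 by a narrow margin. This gave a log2 fold change of -0.48 (SE 0.29, limma adjusted p = 0.722), and without the library labelled JunBΔep replicate 0 it was -0.20 (SE 0.19). Its neighbors on chromosome 1 did not share this order. Tnfsf4, the ligand of Tnfrsf4, was between 0.0131 and 0.0150 FPKM in controls, and at 0.139, 0.0125 and 0.0148 FPKM in mutants. Fasl, the ligand of Fas, was at 0.0244, 0.0255 and 0.0560 FPKM in controls against 0.130, 0.0534 and 0.272 FPKM in mutants.

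Tnfsf12 and its neighbor Tnfsf13 lie 466 bp apart on chromosome 11 and share exons with the read-through Tnfsf12Tnfsf13, so how reads were divided among the 3 entries is uncertain. Tnfsf12, also called TWEAK, was the most abundant ligand in 5 of the 6 mice, at 14.9, 17.8 and 12.1 FPKM in controls against 7.37, 6.34 and 16.8 FPKM in mutants. In the library labelled JunBΔep replicate 0 Tnf and Tnfsf13 exceeded it. For Tnfsf12, 2 mutants were below all controls, whereas JunBΔep replicate 2 lay within their range. Its log2 fold change was -0.64 (SE 0.39, limma adjusted p = 0.722), and -0.48 without the library labelled JunBΔep replicate 0. It was -0.38 without JunBΔep replicate 1 and -1.05 without JunBΔep replicate 2. Tnfsf12Tnfsf13 was at 3.03, 1.498 and 1.10 FPKM in controls against 0.489, 0.962 and 1.86 FPKM in mutants, a log2 fold change of -0.58 (SE 0.44, adjusted p = 0.722), and -0.27 without that library. It was the lowest in the mouse in which Tnfsf13, also called APRIL, was the highest. Tnfsf13 itself was at 4.81, 4.54 and 9.48 FPKM in controls against 11.0, 2.15 and 5.71 FPKM in mutants.

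In the remaining tested ligands the mutants were spread around the controls. Tnfsf10, known as TRAIL, was at 1.82, 1.59 and 1.42 FPKM in controls against 1.46, 0.852 and 2.20 FPKM in mutants. Tnfsf13b, the B cell survival factor BAFF, was at 1.75, 1.55 and 1.28 FPKM in controls against 2.05, 0.772 and 2.31 FPKM in mutants. Tnfsf15, the ligand of Tnfrsf25, was at 0.450, 0.165 and 0.301 FPKM in controls against 0.134, 0.335 and 0.484 FPKM in mutants. In all 3 the mutants held both the lowest and the highest value. Over the 14 tested ligands, 7 fold changes were positive and 7 negative, with a median of -0.06. Without the library labelled JunBΔep replicate 0, 2 were positive and 12 negative, with a median of -0.23.

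Some ligands were close to the lower limit of the table. Below 0.15 FPKM, 14.2% to 17.4% of the genes shared a single ratio between a mouse and control replicate 0, as whole reads would give. After correction by that ratio, the values of Tnfsf4 were 1, 1 and 1 times the lowest value in controls, and 10, 1 and 1 times it in mutants. Cd40lg, the ligand of Cd40 on helper T cells, came to 5, 1 and 3 times its lowest value in controls and 12, 1 and 2 times it in mutants. Cd70 came to 2, 2 and 5 times in controls and 1, 8 and 2 times in mutants. If the lowest value is 1 fragment, these 3 genes stand at 1 to 12 fragments in each mouse. Fasl had multiples that were not whole, from 1 to 10.7.

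Among the receptors with a death domain, Tnfrsf10b was higher in every mutant. In Tnfrsf10b, the mouse receptor for TRAIL (chromosome 14, 70167279 to 70184210), the controls had 3.97, 3.83 and 3.67 FPKM against 5.78, 4.65 and 5.45 FPKM in mutants. The control mean was 3.82 ± 0.155 (SD, n = 3) and the mutant mean was 5.29 ± 0.578 (SD, n = 3). On the log2 scale the fold change was 0.42 (SE 0.19, limma adjusted p = 0.696). It did not lean on the library labelled JunBΔep replicate 0, since it was 0.36 (SE 0.18) without it. Within the number series of the sample titles, the difference was 0.51 between the library labelled JunBΔep replicate 0 and control replicates 0 and 1, and 0.41 between JunBΔep replicates 1 and 2 and control replicate 2. The same differences were 3.28 and 0.31 for Tnfsf11, -1.12 and -0.06 for Tnfsf18 and -0.96 and -1.14 for Tnfrsf17. Since the groups of these 4 members do not overlap, their sign in either series was fixed beforehand.

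Tnfrsf1a, the main Tnf receptor of epithelium and stroma, was the most abundant member. It was at 91.2, 99.3 and 79.4 FPKM in controls against 159.9, 88.5 and 107 FPKM in mutants, a log2 fold change of 0.36 (SE 0.25, limma adjusted p = 0.722). One mutant lay within the controls. Without the library labelled JunBΔep replicate 0 the fold change was 0.12 (SE 0.18). Fas, the receptor of Fasl, was at 11.9, 18.4 and 9.37 FPKM in controls against 12.2, 6.70 and 17.96 FPKM in mutants. Tnfrsf21, a death domain receptor also found on neurons, was at 17.1, 12.8 and 13.9 FPKM in controls against 20.3, 7.70 and 13.9 FPKM in mutants. Fas and Tnfrsf21 both overlapped between the groups.

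Tnfrsf25, the death domain receptor of Tnfsf15, split the mutants and was singled out after its values were seen. It was at 5.63, 5.45 and 4.47 FPKM in controls. The library labelled JunBΔep replicate 0 was the lowest of the 6 mice at 2.51 FPKM, and JunBΔep replicates 1 and 2 were the highest at 8.32 and 7.13 FPKM. Without that library Tnfrsf25 was the member with the smallest adjusted p, 0.55 from limma, and the only one at an unadjusted p below 0.05. In that comparison of 2 mutants with 3 controls, 3 members were higher without overlap (Tnfsf11, Tnfrsf10b and Tnfrsf25) and 4 were lower (Tnfrsf17, Tnfsf18, Cd40 and Tnfrsf23). Over all genes 11.1% were higher and 13.1% lower in the same sense.

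**Figure D3:**
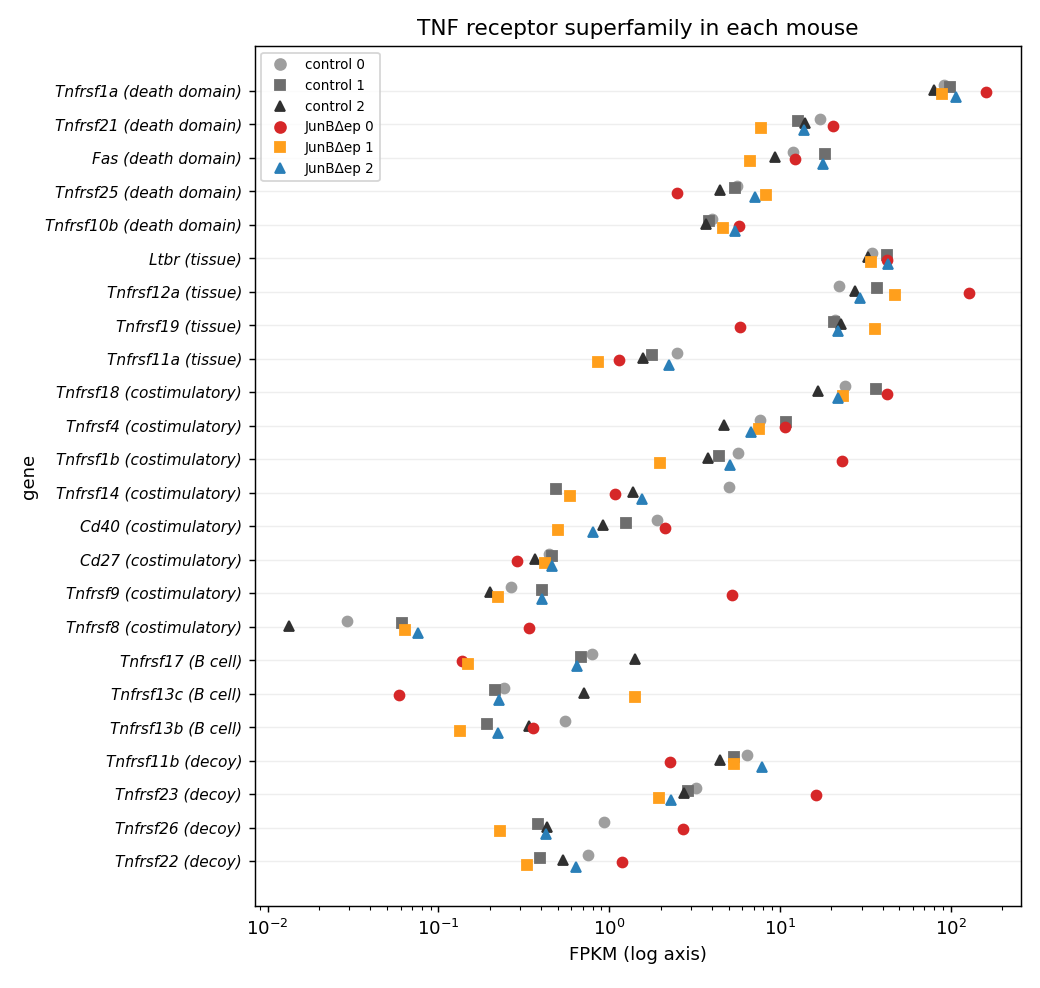
FPKM on a log axis (x axis) of the 24 TNF receptor superfamily genes (y axis, by class and then by control mean), with 1 point per mouse, grey for controls and colored for mutants. Tnfrsf1a is the most abundant, the library labelled JunBΔep replicate 0 (red circles) stands to the right for Tnfrsf12a, Tnfrsf1b, Tnfrsf9 and Tnfrsf23, and all mutants stand to the left of all controls for Tnfrsf17.

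Besides Tnfrsf11a, the 3 receptors of tissue cells were abundant and behaved in different ways. Tnfrsf12a (chromosome 17, 23812414 to 23814416), the receptor of TWEAK, is known to be induced in damaged tissue. It was at 22.3, 36.8 and 27.6 FPKM in controls against 128, 47.1 and 29.3 FPKM in mutants. JunBΔep replicate 1 and the library labelled JunBΔep replicate 0 exceeded every control, and JunBΔep replicate 2 lay among them. This was a log2 fold change of 0.98 (SE 0.54, limma adjusted p = 0.722), and 0.39 (SE 0.31) without the library labelled JunBΔep replicate 0. Ltbr, the lymphotoxin β receptor, varied little, at 34.4, 42.2 and 32.5 FPKM in controls against 42.4, 34.2 and 42.8 FPKM in mutants. Tnfrsf19, a receptor known from hair follicles, was at 20.9, 20.7 and 22.8 FPKM in controls against 5.79, 35.8 and 21.8 FPKM in mutants. The controls of Tnfrsf19 were thus close together while the mutants held both extremes. Hair follicle markers also differed between the mice, with sums of 15.1, 26.1 and 3129 FPKM over 6 genes in controls and 283, 5500 and 102 FPKM in mutants, and their part in the level of Tnfrsf19 was not tested.

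Of the 7 tested costimulatory receptors, 4 had their highest value in the library labelled JunBΔep replicate 0. Tnfrsf9, which is induced on activated T cells (chromosome 4, 150288671 to 150320211), had 0.266, 0.403 and 0.201 FPKM in controls against 5.27, 0.222 and 0.406 FPKM in mutants. The single high mouse was 13.0 times as high as any other. Its log2 fold change was 0.99 (SE 0.79, limma adjusted p = 0.722), or 0.04 (SE 0.20) without that library. Tnfrsf1b, the Tnf receptor of leukocytes, was at 5.64, 4.37 and 3.81 FPKM in controls against 23.1, 1.99 and 5.08 FPKM in mutants. Its log2 fold change was 0.45 (SE 0.80, adjusted p = 0.85), and -0.44 without the library labelled JunBΔep replicate 0. The positive fold changes of Tnfrsf9 and Tnfrsf1b thus rested on 1 mouse.

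Tnfrsf18 and Tnfrsf4, neighbors on chromosome 4 that are known from regulatory and activated T cells, had overlapping groups. Tnfrsf18 was at 24.2, 36.2 and 16.8 FPKM in controls against 42.4, 23.3 and 22.0 FPKM in mutants. Tnfrsf4 was at 7.63, 10.8 and 4.69 FPKM in controls against 10.7, 7.57 and 6.76 FPKM in mutants. In the controls both genes had the same order, with replicate 1 highest and replicate 2 lowest, and in the mutants both had their highest value in the library labelled JunBΔep replicate 0, their lowest in JunBΔep replicate 2. The 8 T cell markers summed to 27.2, 43.1 and 19.8 FPKM in controls, in that same order, and to 21.7, 18.9 and 30.7 FPKM in mutants, in another order. The 3 regulatory T cell markers, such as Foxp3, summed to 2.93, 3.01 and 1.93 FPKM in controls against 5.80, 1.48 and 2.73 FPKM in mutants. Their part in the levels of these receptors was not tested.

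The other costimulatory receptors were low. Tnfrsf14, the herpesvirus entry mediator, reached 5 FPKM in control replicate 0 and was at 0.486 and 1.37 FPKM in the other controls, against 1.08, 0.587 and 1.55 FPKM in mutants. Its log2 fold change of -0.51 (SE 0.65, limma adjusted p = 0.793) turned to 0.16 without control replicate 0 and was -0.54 without the library labelled JunBΔep replicate 0. Cd40, the receptor of antigen-presenting cells for Cd40lg, was at 1.91, 1.25 and 0.921 FPKM in controls against 2.13, 0.504 and 0.805 FPKM in mutants. The macrophage and monocyte markers had their highest and lowest sums in the same mice as Cd40 but were ordered differently in the other mice, with sums of 472, 227 and 271 FPKM over 7 genes in controls and 852, 91.7 and 234 FPKM in mutants, and their part in the level of Cd40 was not tested. Cd27, the receptor of Cd70 on T cells, stayed between 0.287 and 0.462 FPKM. Tnfrsf8, known as CD30, was below the level filter at 0.0292, 0.0612 and 0.0134 FPKM in controls against 0.341, 0.0640 and 0.0758 FPKM in mutants. Every mutant was above every control, JunBΔep replicate 1 by a small margin, and in multiples of the lowest value Tnfrsf8 came to 2, 4 and 1 in controls and 24, 5 and 5 in mutants. Tnfrsf8 and Tnfrsf9 both carry the AP-1 motif in the promoters shown above.

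The B cell and plasma cell receptors held the member with the smallest p. Tnfrsf17, also called BCMA, is a receptor of plasma cells (chromosome 16, 11313905 to 11320167). It was at 0.794, 0.682 and 1.41 FPKM in controls against 0.138, 0.149 and 0.647 FPKM in mutants, and every mutant was below every control, JunBΔep replicate 2 by a narrow margin. The control mean was 0.961 ± 0.390 (SD, n = 3) and the mutant mean was 0.311 ± 0.291 (SD, n = 3). The log2 fold change was -0.87 (SE 0.32, limma adjusted p = 0.57). Without the library labelled JunBΔep replicate 0 it was -0.73 (SE 0.35), and both remaining mutants were below all controls. Tnfrsf13b, known as TACI, was at 0.552, 0.193 and 0.338 FPKM in controls against 0.358, 0.134 and 0.223 FPKM in mutants. Tnfrsf13c, the BAFF receptor, was at 0.241, 0.215 and 0.710 FPKM in controls against 0.0586, 1.42 and 0.226 FPKM in mutants. In contrast to Tnfrsf17, both overlapped. The 6 B cell markers summed to 3.92, 1.68 and 3.27 FPKM in controls against 0.951, 5.87 and 1.68 FPKM in mutants, and like Tnfrsf13c they were highest in JunBΔep replicate 1 and lowest in the library labelled JunBΔep replicate 0. Their part in these levels was not tested.

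Of the decoy receptors besides Tnfrsf11b, Tnfrsf23 and its near copies Tnfrsf22 and Tnfrsf26 lie side by side on chromosome 7. Reads may be shared among them, so the division of their levels is uncertain. Tnfrsf23, a decoy for TRAIL, was at 3.22, 2.88 and 2.74 FPKM in controls against 16.1, 1.95 and 2.31 FPKM in mutants. Its controls were thus flanked by the library labelled JunBΔep replicate 0, 5.02 times as high as any other mouse, and by the other mutants below all of them. The log2 fold change of Tnfrsf23 was 0.50 with all mice and -0.39 without that library. Tnfrsf26 was at 0.928, 0.380 and 0.433 FPKM in controls against 2.72, 0.230 and 0.425 FPKM in mutants. Tnfrsf22 was at 0.749, 0.392 and 0.539 FPKM in controls against 1.19, 0.328 and 0.640 FPKM in mutants. All 3 had their highest value in the library labelled JunBΔep replicate 0, their lowest in JunBΔep replicate 1.

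**Figure D4:**
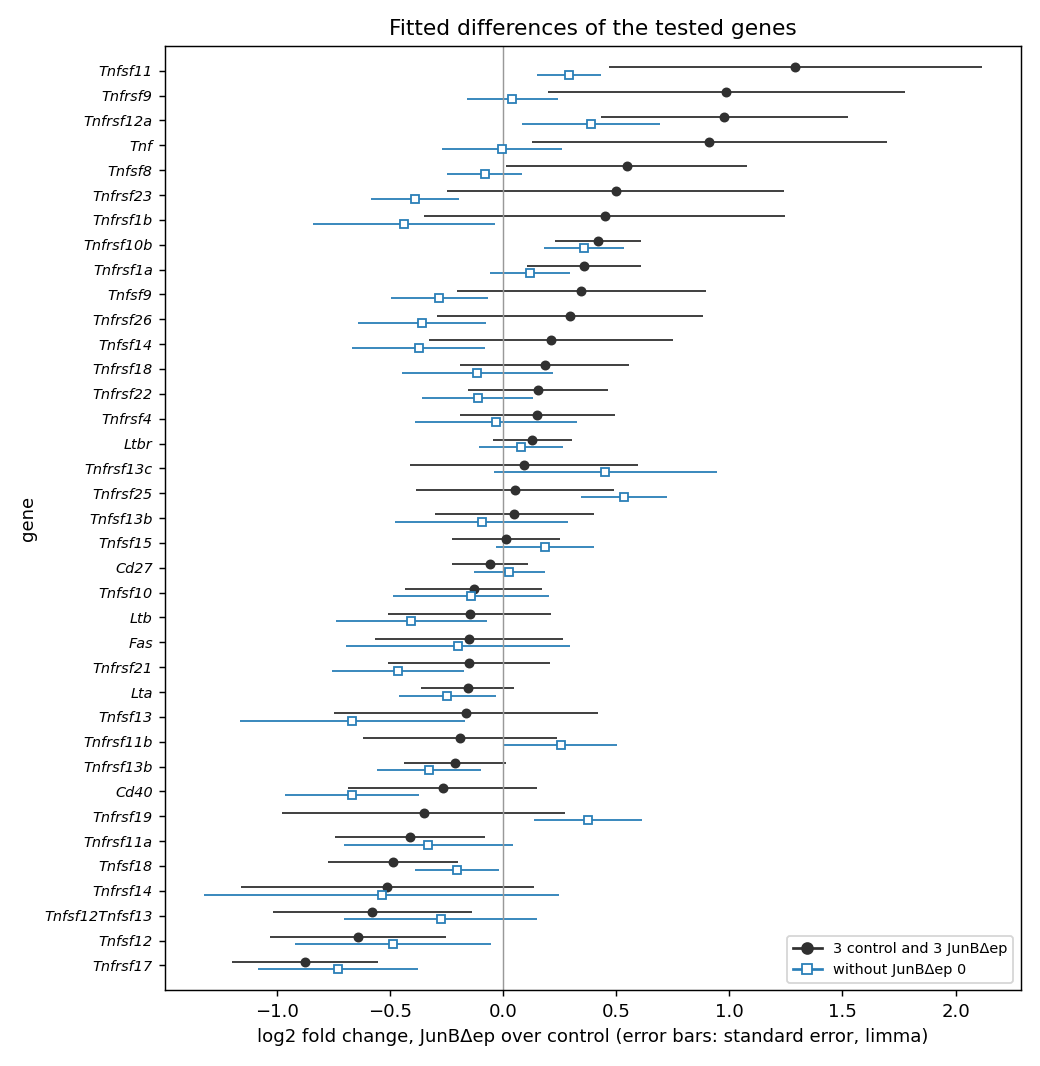
Log2 fold change of mutants over controls (x axis, error bars are limma standard errors) for the 37 tested genes (y axis), fitted with all 6 mice (black circles) and without the library labelled JunBΔep replicate 0 (open blue squares). Without that mouse the values of Tnf and Tnfrsf9 are -0.01 and 0.04, while those of Tnfrsf10b and Tnfrsf17, 0.36 and -0.73, stay close to 0.42 and -0.87.

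Further superfamily genes with other symbols were looked up beside the members. Of 5 that were in the table, Ngfr, the neurotrophin receptor of nerve fibers and stem cells, was lower in every mutant. It was at 7.11, 4.98 and 4.61 FPKM in controls against 1.98, 1.58 and 1.67 FPKM in mutants. The groups were far apart and each group was narrow. Its log2 fold change was -1.42 (SE 0.24, limma adjusted p = 0.0639), which did not pass the threshold, and it was -1.49 without the library labelled JunBΔep replicate 0 (adjusted p = 0.0961). Relt, another receptor of the superfamily, was at 4.14, 3.35 and 3.06 FPKM in controls against 3.23, 2.06 and 1.01 FPKM in mutants. Eda2r, a receptor of ectodysplasin, was at 1.42, 1.26 and 1.55 FPKM in controls against 3.94, 0.552 and 0.884 FPKM in mutants. With that library left out, Ngfr, Relt and Eda2r were each lower without overlap (3 of 5, all genes 13.1%) and at an unadjusted p below 0.05 (all genes 8.07%), whereas with all mice 1 of the 5 was. None of the 5 genes was called, with or without it.

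Downstream of the receptors, 0 of 30 adaptor and signaling genes were called, 1 (Traf4) was at an unadjusted p below 0.05 (all genes 7.56%), and 22 had a positive fold change, with a median of 0.14. All mutants were above all controls in 5 of them and below in 1, Cyld (all genes 5.62% and 9.16%). Without the library labelled JunBΔep replicate 0 these counts were also 5 and 1 (all genes 11.1% and 13.1%), 0 genes were at an unadjusted p below 0.05 (all genes 8.07%), and the median was 0.10. Ripk3, the kinase of necroptosis, was at 5.21, 4.03 and 4.04 FPKM in controls against 22.4, 5.77 and 5.80 FPKM in mutants, a log2 fold change of 0.98 (SE 0.54, limma adjusted p = 0.722), and 0.36 without that library. Traf4, a member of the TRAF adaptors, was at 4.10, 3.91 and 5.63 FPKM in controls against 7.65, 8.34 and 5.78 FPKM in mutants. Tnfaip3, the NF-κB inhibitor also called A20, was at 6.62, 5.26 and 5.42 FPKM in controls against 20.7, 6.65 and 9.25 FPKM in mutants. In Ripk3 and Tnfaip3 the largest part of the difference lay in 1 mouse. The groups still did not overlap without that mouse, in both genes by a margin of less than the spread of the controls. Fadd, which links death receptors to caspases, was between 4.64 and 5.01 FPKM in controls and between 5.55 and 5.91 FPKM in mutants. Tab3, a partner of the kinase Map3k7, was at 2.52, 2.45 and 2.64 FPKM in controls against 2.99, 3.21 and 2.77 FPKM in mutants. Cyld, a deubiquitinase that restrains NF-κB, was at 5.79, 5.48 and 5.33 FPKM in controls against 3.68, 4.06 and 5.18 FPKM in mutants.

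Both sheddases that release Tnf and other ligands peaked in the mouse with the highest Tnf, as did 29.7% of all tested genes. Adam17, the Tnf converting enzyme, was at 21.1, 20.7 and 17.4 FPKM in controls against 32.2, 15.3 and 18.7 FPKM in mutants, with overlapping groups. Adam10 was at 13.7, 12.2 and 14.1323 FPKM in controls against 22.4, 16.7 and 14.1497 FPKM in mutants, and every mutant was above every control, though its lowest mutant exceeded its highest control by less than the spread of the controls.

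Genes known to respond to Tnf were mostly highest in the mouse with the highest Tnf. Of 18 such genes, 0 were called, 1 (Ccl20) was at an unadjusted p below 0.05 (all genes 7.56%), and 12 had a positive fold change, with a median of 0.40. Of the 17 that averaged 0.1 FPKM or more in the other 5 mice, that library was the highest in 14 and exceeded each of the others by more than 2 times in 9 (52.9%, all such genes 5.66%). The remaining gene, Csf2, passed the level filter only through that library. Without it the median of the 17 genes still tested was -0.16, with 5 positive and 12 negative. Of these 17, 2 were higher and 4 lower without overlap (all genes 11.1% and 13.1%), and 2, Tnfaip2 and Sod2, were at an unadjusted p below 0.05 (all genes 8.07%), both with a negative fold change. Ier3, an early response gene, was at 20.7, 32.2 and 23.7 FPKM in controls against 241 FPKM in the library labelled JunBΔep replicate 0, with 37.0 and 33.6 FPKM in the other mutants. Ccl20, a chemokine for Langerhans cell precursors and Th17 cells, was at 3.33, 1.12 and 0.846 FPKM in controls against 5.81, 2.47 and 9.43 FPKM in mutants, a log2 fold change of 1.49 (SE 0.59, limma adjusted p = 0.633), and 1.42 without that library. Ccl20 was the response gene with the largest fold change, and it was highest in JunBΔep replicate 2, where Tnf lay among the controls.

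Beside these values, the markers of other cells in each mouse were read for the same library. Relative to the control mean, the median mucosal marker was at 9.58, the median neutrophil marker at 4.39 and the median adipocyte marker at -6.92 on the log2 scale in the library labelled JunBΔep replicate 0, and the macrophage markers were at 1.14 there and at -1.46 in JunBΔep replicate 1. The T cell markers were at -0.02 and -0.58 in the same mice. The mucosal median of 9.58 includes markers that pass the level filter only through the library labelled JunBΔep replicate 0. Without it only Krt13 and Krt4 pass. They were at 1990 and 1356 FPKM in that library, against at most 0.367 and 0.937 FPKM in the other mice. Thus the mouse in which Tnf, Tnfsf8, Tnfsf9, Tnfsf11, Tnfsf14, Tnfrsf9 and Tnfrsf1b peaked had the most neutrophil and mucosal marker transcripts. It also had the fewest adipocyte marker transcripts. JunBΔep replicate 1 had the lowest values of 17 members, the lowest sum over all genes (481078 FPKM) and the highest sums of hair follicle and B cell markers. Its sums and medians of macrophage, T cell, regulatory T cell, dendritic cell, endothelium and fibroblast markers were the lowest. The margin was minute for the dendritic cell sum (9.651 against 9.652 FPKM) and narrow for the T cell sum (18.9 against 19.8 FPKM). Its keratinocyte, skeletal muscle and mucosal sums were the lowest too. However, the keratinocyte median was lower in control replicate 2 (-0.30 against -0.15). The skeletal muscle median was lower in the library labelled JunBΔep replicate 0 (-3.61 against -3.59). The mucosal sums were at most 1.41 FPKM outside that library. The part of these cells in the levels of the TNF superfamily was not tested.

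**Figure D5:**
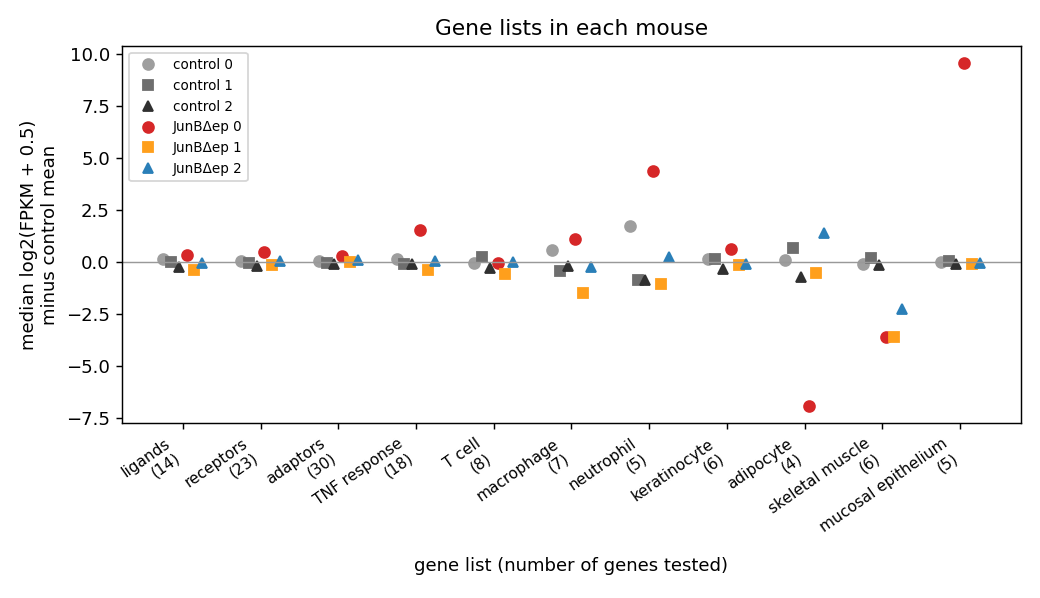
Median difference from the control mean on the log2(FPKM + 0.5) scale (y axis) of each gene list (x axis, number of tested genes in parentheses), with 1 point per mouse. The library labelled JunBΔep replicate 0 (red circles) is the highest mouse for ligands, receptors and TNF response genes, and stands far above the other mice for neutrophil (4.39) and mucosal (9.58) markers and far below them for adipocyte markers (-6.92). Of the mucosal markers, only Krt13 and Krt4 pass the level filter without that library.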

How the data were processed

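RNA of whole skin from 3 control and 3 JunBΔep mice was sequenced as strand-specific poly(A) libraries. Per the labels, the authors used FastQC, TopHat2 2.0.10 with Bowtie 1.0.0 and SAMtools 0.1.19 on the mm9 build, and the processing notes also name Cufflinks. The authors deposited FPKM values per gene and mouse, and read counts, on which their own test was run, were not analysed here. Values were used as deposited, without rescaling, and no column was left unused.

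Genes that averaged 0.1 FPKM or more were compared on the log2(FPKM + 0.5) scale with limma 3.58.1 in R 4.3.3 (intensity trend, no block, two-sided, Benjamini-Hochberg adjustment over 17021 genes, threshold 0.05). The procedure was tested on simulated data. Values below 0.15 FPKM were compared at 3 decimals of the log2 ratio. Further software was Python 3.11.15 with pandas 2.3.3, numpy 2.4.6 and matplotlib 3.10.9. Gene positions were taken from the mm9 annotation GENCODE vM1.

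The members and gene lists were chosen with earlier results of these data known. Fold changes are printed for 14 members: those without overlap, the 4 highest and 4 lowest, Tnf, Tnfsf11 and their receptors. Those of Tnfsf8, Tnfsf9, Tnfsf14 and Tnfrsf23 were added after their values were seen. Genes of other lists are named where the groups do not overlap, where the change is the largest of the list or where they mark a cell type, and Adam17, Relt, Eda2r, Csf2, Tnfaip2 and Sod2 were added after their values were seen. Alternatives were a pseudocount of 0.1 or 1, filtering not at all or at 1 FPKM, median-ratio, total (1000000) and quantile scaling, limma without trend or robust, blocks on the replicate number and on the number series of the titles, and each mouse left out. One more, which left out replicate 0 of both groups, was added after the data were seen.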

Additional observations from a re-analysis of the deposited data

How the results depend on the processing

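Under all 18 alternatives 0 members were called, and the smallest adjusted p of a member was 0.137 from limma (Tnfsf12, without JunBΔep replicate 2). Of 250 single fold changes recomputed, 241 kept their direction and 9 were reversed. The members' median ranged from -0.14 (without the library labelled JunBΔep replicate 0) to 0.21 (without JunBΔep replicate 1). With a mouse left out in turn, 3 to 8 members were higher without overlap and 2 to 5 lower, where fewer mice make non-overlap easier. Some of the higher counts include Tnfrsf8 or Fasl, which miss the level filter with all mice. A filter at a mean of 1 FPKM removed Tnfrsf17 and Tnfsf18 and left 0 members lower without overlap. The size of the change in low members moved with the pseudocount. At 0.1 and at 1 the log2 fold change was -1.52 and -0.585 for Tnfrsf17 and -0.844 and -0.323 for Tnfsf18. For Tnfsf11 it was 1.98 and 0.971. The log2 fold change of Tnf ranged from -0.00514 to 1.40, of Tnfrsf1b from -0.44 to 1.18 and of Tnfrsf11b from -0.54 to 0.25 with a mouse left out, the reversed ends of Tnf and Tnfrsf1b and the positive end of Tnfrsf11b without the library labelled JunBΔep replicate 0. For Tnfrsf14 the range was -1.08 to 0.16, positive without control replicate 0. With replicate 0 of both groups left out, 5 members were higher and 4 lower without overlap (all genes 14.3% and 14.6%), and the fold changes of Tnf (-0.0279), Tnfrsf1b (-0.30), Tnfrsf11b (0.37), Tnfrsf14 (0.14) and Tnfsf12Tnfsf13 (0.0522) were reversed.

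Same-numbered mice did not deviate together (correlations over genes of 0.12, -0.228 and -0.426), which gave no sign that the numbers pair the mice. The highest correlation was between control replicate 2 and JunBΔep replicate 1 (0.46). With 3 mice per group that also differ in their cell markers, these correlations cannot exclude a pairing. With a replicate block 0 members were called (smallest adjusted p 0.519), 2 were higher and 2 lower without overlap, and their median was 0.05. All genes went from 235 calls to 0 with that block, to 0 with a block on the title series, to 0 without any single control, without JunBΔep replicate 1 or without replicate 0 of both groups, to 135 without the library labelled JunBΔep replicate 0 and to 254 without JunBΔep replicate 2. With a block on the title series 5 members were at an unadjusted p below 0.05 (all genes 8.95%). That block moved the log2 fold change of Tnf from 0.91 to 1.45, of Tnfrsf1b from 0.45 to 0.95 and of Tnfrsf9 from 0.99 to 1.5. The number of reads is unknown, which limits what can be said of members below 0.15 FPKM.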
